A study of Mus musculus with 8 samples.

Results

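Of the 1881 mouse microRNAs (miRNAs) on the arrays, 7 are mature products of the hairpins of miR-215, miR-194 and miR-192. They were taken by name from the array annotation: mmu-miR-192-5p, mmu-miR-192-3p, mmu-miR-194-5p, mmu-miR-194-1-3p, mmu-miR-194-2-3p, mmu-miR-215-5p and mmu-miR-215-3p, written below without the species prefix. Their signals were read in 4 kidney samples of male Akita mice (strain C57BL/6-Ins2Akita/J) and 4 of male controls (strain C57BL/6J), 1 array per sample. The Akita allele is a dominant point mutation of Ins2, an insulin gene expressed in pancreatic beta cells, and its carriers become diabetic. The age label reads 36 in both groups without a unit. The titles name the controls Mock, and the sources used here give no treatment of either group. The labels do not say that each sample is from a mouse of its own, so a p-value here speaks only of the spread between these samples. The controls occupied row 1 of the slide and the Akita samples row 2, so row and genotype cannot be told apart in any difference given here.

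MiRNAs are cut from hairpin transcripts, and each hairpin can yield a mature form from its 5′ arm (5p) and its 3′ arm (3p). A mature form finds its messenger RNA targets mostly through its seed, the stretch next to its 5′ end. MiR-192, miR-194 and their relative miR-215 are known as epithelial miRNAs of gut, liver and kidney, where the tubules express them. MiR-192-5p and miR-215-5p are known as p53-induced miRNAs with the p53 antagonist Mdm2 among their targets. In mesangial cells of the diabetic kidney, miR-192 is known as a TGF-beta-induced repressor of Zeb1 and Zeb2, which themselves repress collagen genes and the miR-200 family.

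The mature sequences are shown 5′ to 3′ with the seed (bases 2 to 8) in capitals, because the seed decides which of them form a family. All 7 were found by name in a RefSeq table of the GRCm38.p6 build.
miR-192-5p: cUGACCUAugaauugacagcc
miR-215-5p: aUGACCUAugauuugacagac
miR-194-5p: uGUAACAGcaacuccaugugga
miR-192-3p: cUGCCAAUuccauaggucacag
miR-194-1-3p: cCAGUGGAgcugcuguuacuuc
miR-194-2-3p: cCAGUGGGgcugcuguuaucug
miR-215-3p: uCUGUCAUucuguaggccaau

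MiR-192-5p and miR-215-5p share their seed, and no other member has it. Counted from 1 at the 5′ end of miR-192-5p, they differ by C1A, A12U and C20A, so 18 of their 21 bases are identical. MiR-194-5p is the same from both of its hairpins, and a signal of it cannot be assigned to either. The 3p forms of those hairpins differ by A8G, C19U, U20C and C22G, with the base of miR-194-1-3p written first, and A8G lies in the seed.

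The 4 hairpins are shown with both mature forms in capitals, because they stand in 2 clusters and each cluster holds a miR-194 copy. Mir194-2 at chr19:6264643-6264728 and Mir192 at chr19:6264844-6264932 lie on the + strand with 115 bases between them, outside any protein-coding gene, between Atg2a and Ehd1. Mir194-1 at chr1:185313319-185313385 and Mir215 at chr1:185313581-185313692 lie on the + strand with 195 bases between them, within the span of Iars2, which is transcribed from the opposite strand. Sequences and positions are those of RefSeq on GRCm38.p6.
Mir194-2: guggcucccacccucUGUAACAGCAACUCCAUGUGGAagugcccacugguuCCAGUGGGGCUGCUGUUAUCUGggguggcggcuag
Mir192: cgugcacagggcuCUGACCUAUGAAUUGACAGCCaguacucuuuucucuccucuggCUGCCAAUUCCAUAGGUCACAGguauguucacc
Mir194-1: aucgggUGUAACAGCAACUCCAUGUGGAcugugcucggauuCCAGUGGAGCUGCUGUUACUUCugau
Mir215: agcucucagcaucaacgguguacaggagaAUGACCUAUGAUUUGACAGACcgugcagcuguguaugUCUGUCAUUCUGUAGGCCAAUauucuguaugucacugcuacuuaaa

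Each mature form was read by 2 DNA probes, a shorter one and one that is longer by 1 base, each printed on 15 spots per array. The probes bind the 3′ end of the mature form. They are shown for the 5p forms and for miR-194-2-3p, on which the statements about detection turn, with the added base of the longer probe in capitals.
miR-192-5p, 18 bases: ggctgtcaattcataggt
miR-192-5p, 19 bases: ggctgtcaattcataggtC
miR-215-5p, 17 bases: gtctgtcaaatcatagg
miR-215-5p, 18 bases: gtctgtcaaatcataggT
miR-194-5p, 15 bases: tccacatggagttgc
miR-194-5p, 16 bases: tccacatggagttgcT
miR-194-2-3p, 15 bases: cagataacagcagcc
miR-194-2-3p, 16 bases: cagataacagcagccC

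The kidney label was checked with miRNAs known to be enriched in kidney and with those of other organs. All 7 kidney miRNAs listed (among them miR-204-5p, miR-10a-5p, miR-10b-5p and miR-196a-5p) passed on each of the 8 arrays the detection rule given below. Of 7 miRNAs of liver, muscle, heart, brain and pancreas, 5 were above background on no array. Over the whole array, 257 of the 1881 miRNAs passed on all 8 arrays and 1531 passed on none. The absence of the 5 therefore cannot by itself tell kidney from another tissue. Liver miR-122-5p passed on 5 arrays and muscle miR-1a-3p on 6, with scaled signals of 5.43 to 55.3 and of 18.2 to 39.9; these were named after their values were seen. Homogenised kidney mixes the cell types of the organ, and the arrays do not show which cells the miR-192 signal came from. Between such samples, fewer tubular cells and less of a miRNA per cell cannot be told apart.

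Kidney RNA gave clear signal for 3 of the 7 members, and each of these has a hairpin in the cluster on chromosome 19. On every one of the 8 arrays, both arms of miR-192 and miR-194-5p were well above background. MiR-215-5p, miR-215-3p, miR-194-1-3p and miR-194-2-3p passed on none of the 8. A miRNA passed on an array if, for at least 1 of its probes, at least 0.5 of the spots carried the scanner software's flag for a signal well above background. These are statements of detection within each probe, since probes differ in how well they bind and one probe's brightness says nothing about the amount of another miRNA.

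MiR-192-5p (mmu-miR-192-5p) is the form for which the hairpin is best known. On its longer probe, the unscaled signal in controls 1 to 4 was 2453, 2921, 2996 and 3079.8, in the scanner's arbitrary units of intensity. In Akita 1 to 4 it was 2638, 2100.3, 2279.9 and 2405. Control 1 lay below Akita 1, so the groups overlapped. The shorter probe, which binds the same molecules, read 1609, 1919, 1975 and 1949 in controls and 1715, 1384, 1483 and 1546 in Akita. All 15 spots of both probes were above background on every array, apart from spots left out as outliers, and the spots of a probe varied by 2.03% to 4.91% (coefficient of variation within an array).

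MiR-194-5p (mmu-miR-194-5p) comes from both miR-194 hairpins. On its longer probe the unscaled signals were 1249, 1495, 1436 and 1446 in controls 1 to 4, and 1199, 1019.9, 1042 and 1106 in Akita 1 to 4. Before any scaling, all 4 Akita values lay below all 4 control values, as they did for 95 of the 285 miRNAs later tested (33.3%), on summed probes. The shorter probe gave 673, 802, 749 and 769 in controls and 636, 545, 554 and 596 in Akita, again without overlap.

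MiR-192-3p (mmu-miR-192-3p), from the other arm of the miR-192 hairpin, was dim. Its longer probe read 24.3, 33.4, 33.0 and 35.8 in controls and 27.4, 22.9, 24.4 and 25.3 in Akita, with 66.7% to 100% of its spots above background. Its shorter probe read 7.39 to 11.0 and passed on no array. The detection of miR-192-3p therefore rests on 1 probe, whose spots varied by 11.3% to 18.8%.

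**Figure D1:**
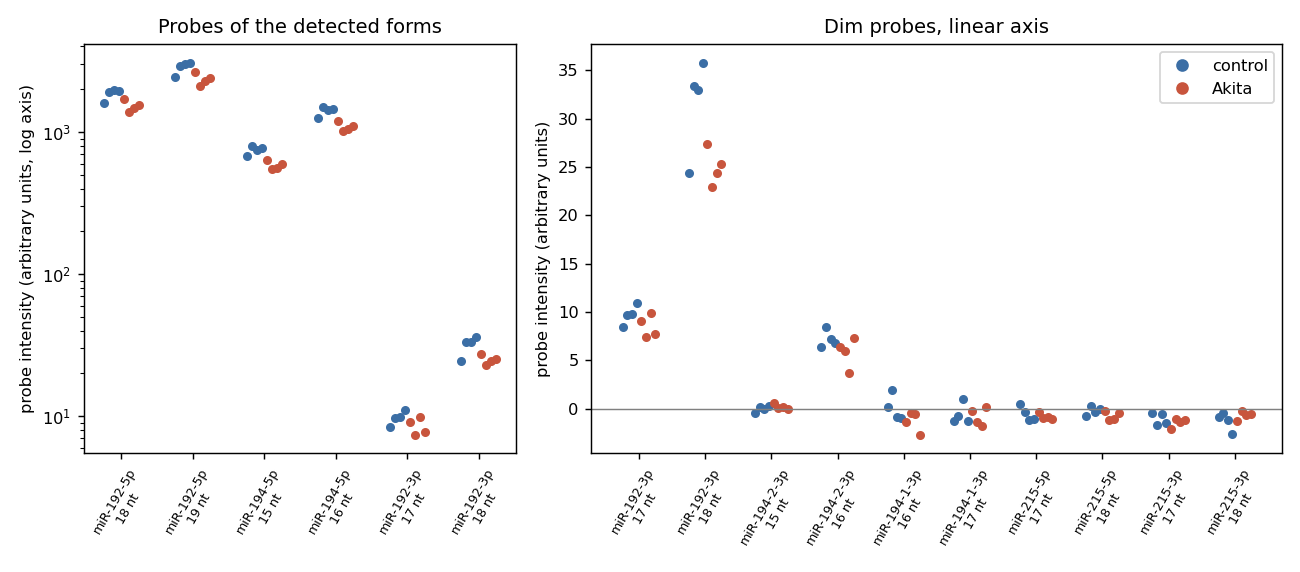
Unscaled probe intensity in arbitrary units, 1 point per array in the order control 1 to 4 (blue) and Akita 1 to 4 (red), with the miRNA and the probe length in nucleotides on the horizontal axis. The left panel (log axis) holds the detected forms. The right panel (linear axis) holds both miR-192-3p probes again and the probes of the undetected forms. There the longer miR-192-3p probe, which passed on every array, lies between 22.9 and 35.8. The longer miR-194-2-3p probe lies between 3.70 and 8.45, and the probes of miR-215 and miR-194-1-3p lie around 0.

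MiR-215-5p, which shares the seed of miR-192-5p, gave no signal on its own probes. Its longer probe read between -1.14 and 0.32 over the 8 arrays, and its shorter probe between -1.11 and 0.47. Each was above 0 on 1 of the 8 arrays. Their means of -0.44 and -0.66 lay close to the median of -0.73 over the 3550 dim probes of the array, those that passed for no array. Within an array, single negative-control spots spread with an SD of 3.28 to 3.75. Of the 3 bases that separate the miRNAs, A12U and C20A lie under the miR-215-5p probe and C1A does not. On these same arrays the miR-192-5p probes read 1384 to 3079.8, and the miR-215-5p probes stayed among the dim probes. MiR-215-3p was below 0 on 8 of 8 arrays with both probes.

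The 3p forms of miR-194 were below the detection rule too. Their probes gave different readings, which do not compare the amounts of these forms. Both probes of miR-194-1-3p scattered around 0, from -2.69 to 1.91 and from -1.79 to 0.98, and each was above 0 on 2 of 8 arrays. The longer probe of miR-194-2-3p was above 0 on 8 of 8 arrays. It read 6.41, 8.45, 7.25 and 6.76 in controls and 6.39, 5.94, 3.70 and 7.28 in Akita. Among the 3550 dim probes, 4.03% had a higher mean than its 6.52, and 16.6% were above 0 on all 8 arrays. Its shorter probe stayed between -0.42 and 0.65, so the signal rests on the probe with the added base and is given as a value without a test.

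The groups were compared after each array was divided by its own 75th percentile, taken over the 451 probes that passed on each of them. Probe values were then summed within a miRNA, and log2 of the sum was used. The unscaled arrays differed: this percentile was 495 to 520 in controls and 369 to 446 in Akita, and the lowest was that of Akita 4. A miRNA was tested where all 4 samples of one group or the other passed the detection rule, which left 285, with limma, a linear model with a spread shared across miRNAs, and Benjamini-Hochberg adjustment over the 285.

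None of the 3 tested members differed between Akita and control kidneys at an adjusted p under 0.05. Over all tested miRNAs 42 did, which is 14.7%, with 8.42% higher in Akita and 6.32% lower. With 3 members, a count of 0 cannot be told from that background. All 3 members overlapped between the groups, as did all but 65 (22.8%) of the tested miRNAs. The median log2 fold change of the 3 members, Akita minus control, was -0.02, beside 0.06 over all tested miRNAs.

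For miR-192-5p the scaled signal was 3781, 4433, 4510.5 and 4459 in controls 1 to 4 and 4498, 3692, 4008 and 4939 in Akita 1 to 4. The highest value of all 8 was that of Akita 4 and the lowest that of Akita 2, so the Akita values enclosed all controls. The log2 fold change was -0.01 (SE 0.10), and limma's adjusted p was 0.97. Its 95% interval, -0.25 to 0.23, corresponds to 0.84-fold to 1.17-fold.

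For miR-194-5p the scaled signal was 1789.7, 2105, 1982 and 1964 in controls and 1896, 1658, 1699.8 and 2128 in Akita. Akita 2 and 3 lay below every control, and Akita 4 above every control. The means were 10.93 ± 0.10 in control and 10.84 ± 0.16 in Akita (log2, SD, n = 4 each). The log2 fold change was -0.09 (SE 0.09, 95% interval -0.31 to 0.12), with a limma adjusted p of 0.52.

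For miR-192-3p the scaled signal was 30.5, 39.5, 38.8 and 41.5 in controls and 37.7, 32.1, 36.6 and 41.3 in Akita. The lowest and the highest value were both controls. The log2 means were 5.22 ± 0.20 and 5.20 ± 0.15 (SD, n = 4 each), with a log2 fold change of -0.02 (SE 0.11, 95% interval -0.28 to 0.24, limma adjusted p = 0.92). These values stand close to the floor of 23.65 under which scaled sums were set to the floor, which limits how far a fall could show.

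**Figure D2:**
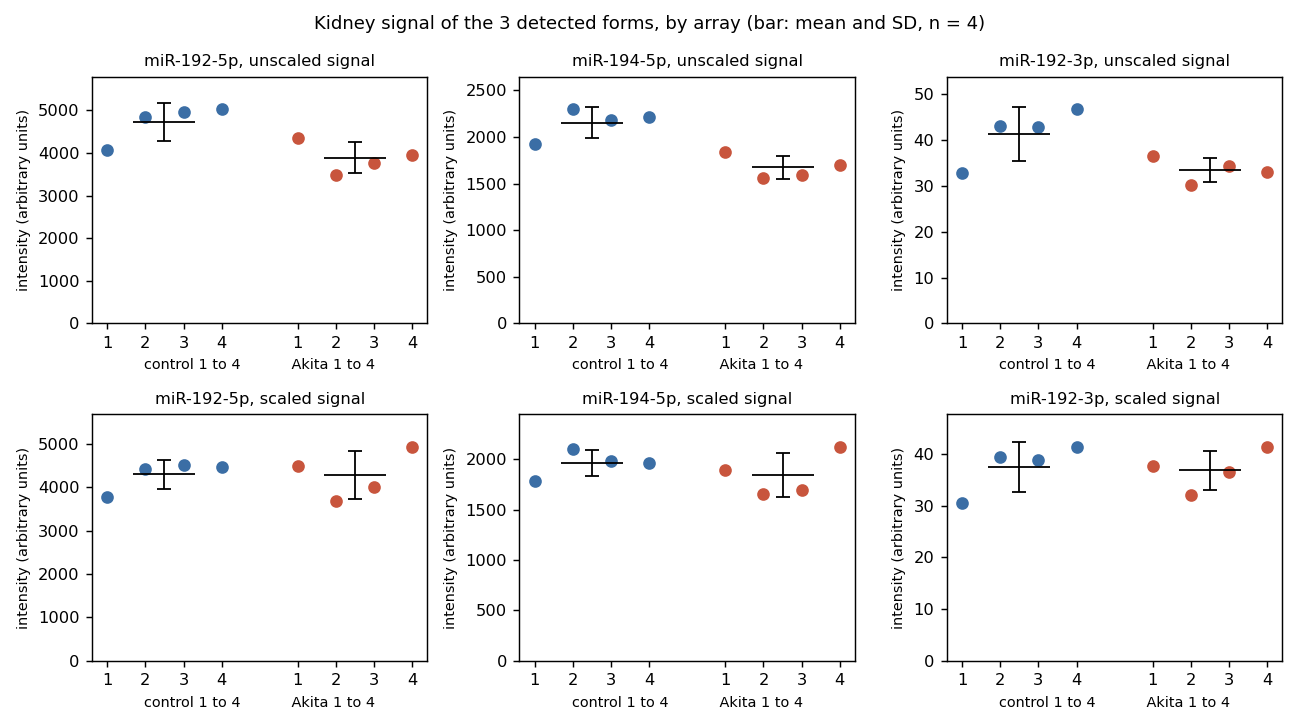
Intensity (arbitrary units, linear axes from 0) of the detected members, 1 per column, in each of the 4 control (blue) and 4 Akita (red) samples, unscaled above and scaled by the 75th percentile below, with the group mean and SD (n = 4). Akita 4 moves from mid-range among the Akita values to 4939 for miR-192-5p and 2128 for miR-194-5p once its array is scaled.

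The members' differences moved with the scaling, as did those of all miRNAs. Without scaling, miR-192-5p had a log2 fold change of -0.28 (limma adjusted p = 0.044), miR-194-5p of -0.36 (0.0080) and miR-192-3p of -0.29 (0.069), beside a median of -0.21 over all tested miRNAs. So 2 of the 3 members were called lower there, and so were 104 of all 285 (36.5%). With the synthetic spike-in RNAs added at labelling as the reference, they stood at -0.25 (adjusted p = 0.026), -0.33 (0.0043) and -0.26 (0.057), beside a median of -0.18 and 37.5% of all miRNAs called lower. A single factor per array shifts every miRNA alike, so each member's distance to the median of all tested miRNAs was the same under these scalings.

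Akita 4 weighed on these values. Its percentile was the lowest, 369, and its scaled signal was the highest for miR-192-5p and miR-194-5p. Without Akita 4, the log2 fold change of miR-192-5p was -0.14 and that of miR-194-5p was -0.22, and limma called neither. Scaling by each array's summed signal, an alternative chosen after the data were seen, gave miR-194-5p a log2 fold change of -0.21 that passed (adjusted p = 0.038), with 18.6% of all miRNAs called lower. As a share of that sum, miR-194-5p made up 0.261% to 0.294% in controls and 0.232% to 0.258% in Akita, without overlap. By that measure all 4 Akita values lay below all 4 controls in 61 of the 285 tested miRNAs (21.4%). The share of miR-192-5p was 0.551% to 0.669% in controls and 0.516% to 0.601% in Akita, with overlap. The sum under both shares weighs bright miRNAs most, among them miR-6366, named after its values were seen. The mean log2 scaled signal of miR-6366 was 17.73 in control and 17.94 in Akita, beside 12.06 in each group for miR-192-5p. Its part in these shares was not tested.

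**Figure D3:**
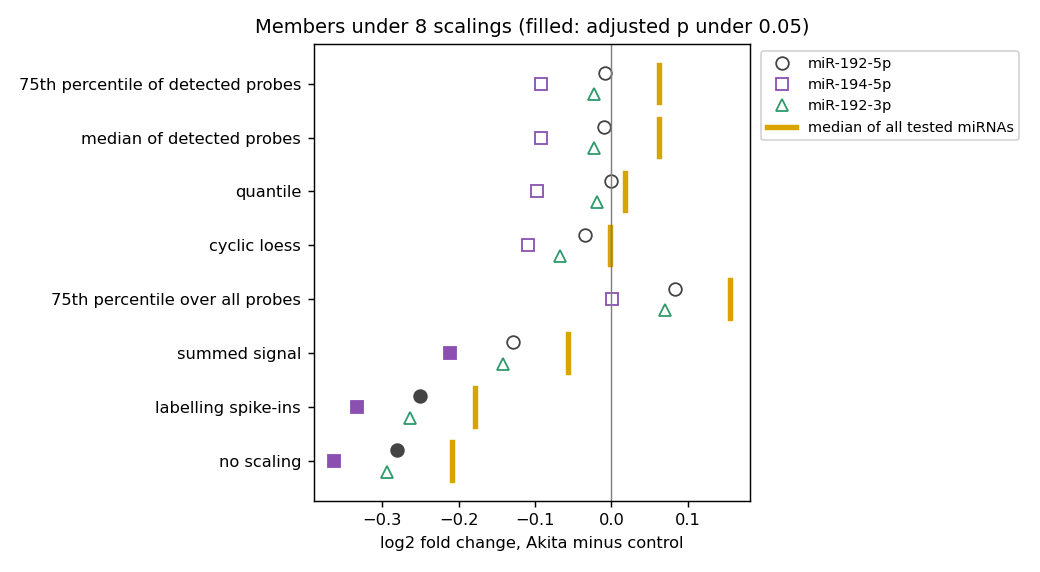
Log2 fold change (Akita minus control) of miR-192-5p (circles), miR-194-5p (squares) and miR-192-3p (triangles) under 8 scalings, filled where limma's adjusted p is under 0.05, with the median of all tested miRNAs as a vertical bar. MiR-194-5p lies left of the other members and of that bar in every row, from -0.36 without scaling to 0.00060 with the percentile over all probes.

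The ratio of 2 members on 1 array does not depend on a scaling factor, so it can be compared between arrays even though its size has no meaning as a ratio of amounts. The miR-192-5p to miR-194-5p signal ratio was 2.11, 2.11, 2.28 and 2.27 in controls 1 to 4 and 2.37, 2.23, 2.36 and 2.32 in Akita 1 to 4. Akita 1, 3 and 4 lay above all controls, and Akita 2 lay within them. On the log2 scale the ratio was 1.13 ± 0.06 in control and 1.21 ± 0.04 in Akita (SD, n = 4 each), a difference of 0.08 (SE 0.04), or 1.06-fold. The exact two-sided permutation test gave p = 0.086, and 0.17 after adjustment over the 2 ratios tested, where 4 against 4 samples allow 0.029 at the smallest. Over the 13 alternatives run for this ratio, the difference stayed above 0 and did not pass. They included other ways of reading the spots and leaving out single arrays. Pairing by replicate number, also among them, could not have passed. Its sign-flip test on 4 pairs allows no p below the 0.125 that it gave.

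The arm ratio of the miR-192 hairpin, miR-192-5p over miR-192-3p, was 124, 112, 116 and 108 in controls and 119, 115, 109.6 and 120 in Akita. The Akita values lay within the control range. The log2 ratio was 6.84 ± 0.09 in control and 6.86 ± 0.06 in Akita (SD, n = 4 each), a difference of 0.01 (SE 0.05). The exact permutation p was 0.80, also after adjustment. No arm ratio was formed for miR-194 or miR-215, since their 3p forms were not above background.

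The detected members rose and fell together from array to array. Over the 8 arrays, miR-192-5p and miR-194-5p correlated with Pearson's r = 0.89 (exact permutation p = 0.0038, adjusted over the 3 pairs 0.0057) and Spearman's rho = 0.81 (p = 0.022, adjusted 0.042). Without Akita 2 and control 1, the arrays farthest from the median of miR-192-5p, r was 0.85. With each group's mean removed, r was 0.94, and it was 0.86 among the controls alone and 0.98 among the Akita arrays alone (4 arrays each). The values of a pair share their array, its RNA and its divisor. Over the 32896 pairs of the 257 miRNAs above background on all arrays, the median of that within-group r was 0.21, and 1.90% of pairs were higher than miR-192-5p with miR-194-5p.

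Both arms of the miR-192 hairpin moved together as well. MiR-192-5p and miR-192-3p had r = 0.91 (exact permutation p = 0.0023, adjusted 0.0057) and rho = 0.71 (p = 0.058), and r = 0.74 without Akita 2 and control 1. Within groups r was 0.91, and 4.06% of all pairs were higher. MiR-194-5p can come from Mir194-2, the neighbour of Mir192, or from Mir194-1. With miR-192-3p it had r = 0.78 (exact permutation p = 0.023) and rho = 0.79 (p = 0.028, adjusted 0.042), and r = 0.82 without Akita 2 and Akita 3. Within groups r was 0.81, with 11.5% of all pairs higher.

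**Figure D4:**
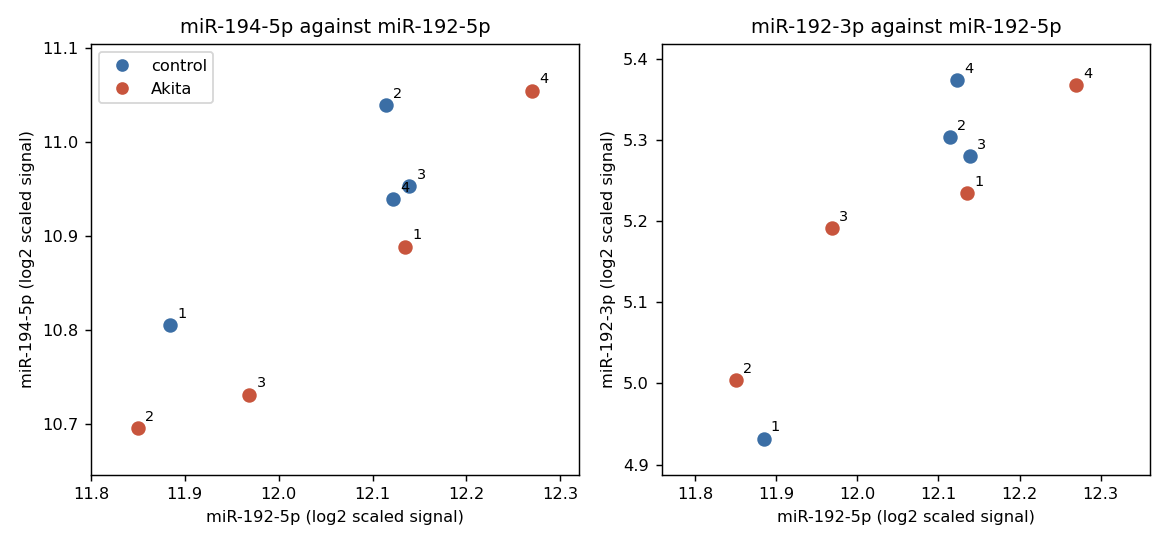
Log2 scaled signal of miR-194-5p (left) and miR-192-3p (right) against miR-192-5p, 1 point per array, control in blue and Akita in red, numbered by replicate, with equal scales on both axes. Akita 4 stands high and Akita 2 and control 1 stand low on both panels (r = 0.89 and 0.91, n = 8).

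By the same within-group r over 8 arrays, miRNAs outside the family were more like each detected member than the other detected members were. Among 254 candidates outside the family, miR-139-5p (r = 0.98), miR-22-5p (0.98) and miR-103-3p (0.96) were most like miR-192-5p, and with the members included miR-194-5p came 11th and miR-192-3p 30th of 256. MiR-30c-2-3p (0.99), miR-93-5p (0.99) and miR-196b-5p (0.98) were most like miR-194-5p. MiR-10b-5p, miR-200b-3p and miR-455-3p (0.95 each) were most like miR-192-3p. These values describe 8 arrays and carry no test.

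Other miRNAs of the pathways in which miR-192 is known were read from lists. Of 10 miRNAs listed as p53-responsive besides the members, 7 were tested. Whether the list differs from all tested miRNAs was not tested. Of the 7, 2 rose and none fell under the main scaling, where 8.42% of all tested miRNAs rose and 6.32% fell. The ones that rose were miR-34a-5p and miR-34b-5p, of the p53-induced miR-34 family, with log2 fold changes of 1.31 and 0.35 (limma adjusted p = 5.4e-05 and 0.0067). The list's median was 0.00, below the 0.06 of all tested miRNAs, and miR-145a-5p (-0.03) and miR-143-3p (0.00) did not pass. The rise of miR-34a-5p was called under all 8 scalings. That of miR-34b-5p was called under 5 of them, and not without scaling, with the spike-ins or with the all-probe percentile. Others of the list were called lower under some scalings. Without scaling 5 of the 7 were, and with the spike-ins 4, where 36.5% and 37.5% of all tested miRNAs were. With cyclic loess, the summed signal and quantile normalization 2, 2 and 1 were, where 41, 53 and 27 of all 285 were.

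Of 12 miRNAs of the TGF-beta and collagen circuit, 9 were tested, with a list median of 0.15 beside 0.06 over all tested miRNAs. Whether this list differs from all tested miRNAs was not tested either. Of the 9, 2 rose and none fell, where 8.42% of all tested miRNAs rose and 6.32% fell. The ones that rose were miR-200c-3p and miR-141-3p, members of the miR-200 family that repress Zeb1 and Zeb2, with log2 fold changes of 0.28 each (limma adjusted p = 0.032 and 0.047). MiR-200b-3p (0.14) and miR-200a-3p (-0.02), of the other cluster of that family, did not pass. The calls depended on the scaling: of the 8 scalings, miR-200c-3p passed under 3 (the main one, quantile and cyclic loess) and miR-141-3p under 2 (the main one and quantile). Without scaling and with the spike-ins the list median was -0.12 and -0.09, beside -0.21 and -0.18 over all tested miRNAs. In these settings 2 and 3 other members of the list were called lower, as were 36.5% and 37.5% of all tested miRNAs. The 3 that were above background on no array were miR-216a-5p and miR-217-5p, known to act downstream of miR-192 in mesangial cells, and miR-377-3p.

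Among the other cell types of the kidney, leukocyte miRNAs moved with the groups. Of 7 listed, 6 fell and none rose, where 6.32% of all tested miRNAs fell, with a list median of -0.55. The median was below 0 under all 8 scalings, but with the all-probe percentile only 1 of the 7, miR-146a-5p, was called lower, a name chosen after its values were seen. MiR-142a-3p (-0.59), miR-142a-5p (-0.55) and miR-223-3p (-0.44), which are known from blood cells, fell, and miR-150-5p (-0.35, limma adjusted p = 0.090) did not pass. The summed scaled signal of the 7 was 1496 to 1838 in controls and 912 to 1057 in Akita, without overlap, and each of the 7 was above background on all 8 arrays. The endothelial miR-126a-3p (0.14) and miR-126a-5p (0.12) did not pass, nor did any of 5 smooth muscle and mesenchymal miRNAs (list median 0.00). Of the erythrocyte miRNAs only miR-451a was tested (log2 fold change 1.24, limma adjusted p = 0.24). The 4 erythrocyte miRNAs on the array summed to 97.0 to 1305 in controls and to 630 to 845 in Akita, and miR-144-5p and miR-486a-5p were above background on no array. The part of these cell types in the members' values was not tested. The 7 kidney-enriched miRNAs had 0 calls under the main scaling, where 14.7% of all tested miRNAs were called, and a median of 0.06. With 7 miRNAs, a count of 0 cannot be told from that background. Without scaling and with the spike-ins 3 of them were called lower each time, and with the summed signal 2, where 18.6% of all were. Quantile normalization and cyclic loess each called 1 higher and 1 lower. Over all 285, they called 32 and 29 higher and 27 and 41 lower.

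In the authors' deposited value table, the 4 undetected members carry values, but not their own. The rows of miR-215-5p, miR-215-3p, miR-194-1-3p and miR-194-2-3p are identical, within 1e-09, to the table's row for blank spots, and so are 1437 of the 1881 miRNA rows. In the authors' deposited table they read 0.700 in control 4 and up to 0.970 in the other controls, as a ratio with no unit. In Akita 1 to 4 they read 1.03, 1.11, 1.13 and 1.22 in the authors' deposited table. The groups do not overlap in these rows, while the scanner signal of both miR-215-5p probes summed to -1.39 to -0.06 in controls and -2.14 to -0.58 in Akita. The same table gives miR-192-5p as 0.850 to 1.06 in controls and 0.848 to 1.06 in Akita. For miR-194-5p it gives 0.928 to 1.11 and 0.878 to 1.05, with overlap for both.

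**Figure D5:**
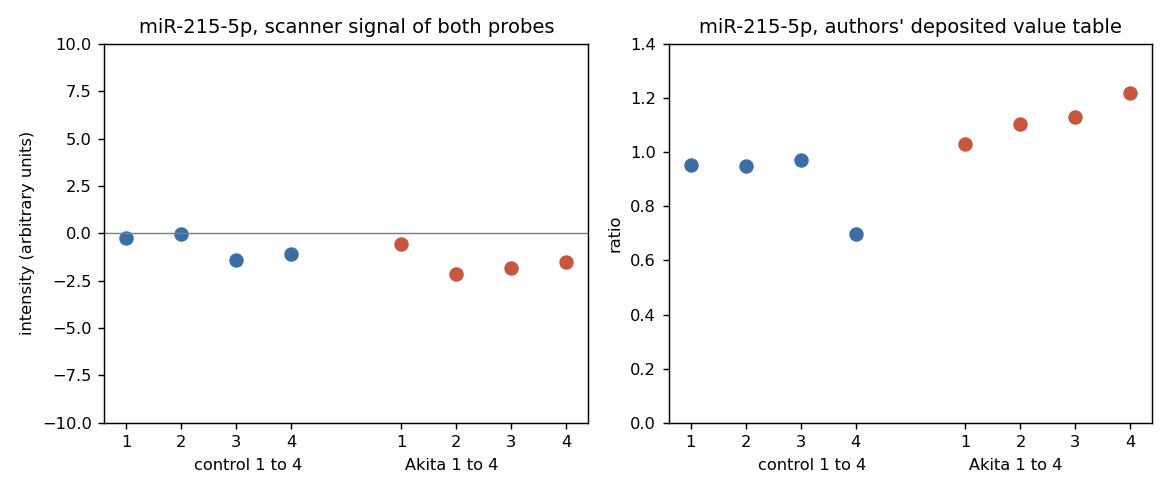
MiR-215-5p in each control (blue) and Akita (red) sample: at left the unscaled scanner intensity summed over both probes (arbitrary units), at right the ratio in the authors' deposited value table, a row identical to that of blank spots. The table's values separate the groups (0.700 to 0.970 against 1.03 to 1.22) while the scanner values lie at or below 0.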

How the data were processed

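For each kidney sample, 100 ng of total RNA went into Cy3 labelling and 1 Agilent miRNA array, per the labels' protocols. Per the file headers, the deposited intensities come from Agilent Feature Extraction 12.0.3.1, are background-subtracted and can be negative. The authors' deposited value table gives each miRNA a ratio on a linear scale. The sources used here do not give its scaling steps, and it served as an alternative.

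Outlier spots were left out and no spot was saturated. Spots were averaged, arrays scaled, probes summed, sums under 23.65 (4.56 on the log2 scale) set to that floor, and groups compared with limma 3.58.1 in R 4.3.3 (6 residual and 9.16 total degrees of freedom; checked on simulated data). Ratios and correlations used exact two-sided permutation tests. Precision is limited by the number of arrays. Groups and replicate numbers came from the sample titles. The members, lists and alternatives were chosen with earlier results of these data known. Named miRNAs are the members, up to 4 tested miRNAs of each list in list order and, for each detected member, the 3 most like it; others are said where they stand to be undetected or chosen later. Sequences and positions came from a RefSeq table of GRCm38.p6. The array annotation names mm9, of which no coordinate was used.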

Additional observations from a re-analysis of the deposited data

Results flagged for a closer look

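MiR-192-5p of control 1 stood apart from the other controls, at a log2 scaled signal of 11.88 where the other 3 lay between 12.11 and 12.14. Its gap to the nearest control was 0.90 of the range of the 4 controls, above Dixon's 95% critical value for 4 values. Of 10 sets of 4 values examined in this way, it was the only one above that value, and chance flags about 1 in 20. Without control 1, the log2 fold change of miR-192-5p was -0.07 (limma adjusted p = 0.67) in place of -0.01.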

How the results depend on the processing

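The members were recomputed under 30 alternatives (29 for miR-192-3p, which lay wholly at the floor when that was raised 4 times). For miR-192-5p, no scaling (-0.28) and the spike-ins (-0.25) brought the log2 fold change past the threshold, and the 75th percentile over all probes turned it to 0.083. For miR-194-5p these gave -0.36, -0.33 and 0.00060, and the summed signal -0.21. For miR-192-3p the percentile over all probes gave 0.070, and background correction by normexp 0.16 (adjusted p = 0.070). Accordingly 2, 2 and 1 members were called with no scaling, the spike-ins and the summed signal. Leaving out single arrays moved miR-192-5p from -0.14 to 0.040, miR-192-3p from -0.14 to 0.023 and miR-194-5p from -0.22 to -0.05, with 0 members called. The miR-192-5p to miR-194-5p ratio ranged from 0.06 to 0.10. The arm ratio of miR-192 ranged from -0.018 to 0.050 and was -0.19 with normexp (exact permutation p = 0.057). After quantile normalization r fell to 0.71 (exact permutation p = 0.058) for miR-192-5p with miR-194-5p, and to 0.48 (p = 0.24) for miR-194-5p with miR-192-3p. The calls over all miRNAs ran from 6 to 114, and from 18 to 37 without single arrays. With the replicate block the adjusted p-values were 0.99, 0.93 and 0.66 for miR-192-5p, miR-192-3p and miR-194-5p, with the same fold changes (-0.01, -0.02 and -0.09), and 25 miRNAs were called in place of 42. No pairing by replicate number was evident: same-numbered deviations correlated at 0.10, -0.30, 0.34 and -0.35, values that carry no test. The cause of these shifts was not tested. Signal over background limits the 4 undetected members to statements of detection, and miR-192-3p to 1 probe.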
